A study of Mus musculus with 2 samples.

Results

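Ribosomal protein genes gave 72 of the 17922 peaks in the miR-9 capture of MLg, a line of mouse lung fibroblasts. The members were chosen by name alone, as peaks that HOMER assigned to a gene whose name starts with Rpl, Rps, Rplp or Rpsa followed by a digit or by nothing. Peaks of the Rps6k kinase genes (8) and of genes named as pseudogenes (2) were left out, and 35 gene names remained. In ChIRP-seq (chromatin isolation by RNA purification, with sequencing), cells are fixed with formaldehyde, biotinylated oligonucleotides against an RNA pull down the chromatin it touches, and the DNA is sequenced. The study used it to ask where the microRNA miR-9 meets chromatin in fibroblast nuclei. It had 1 capture library, with biotinylated oligonucleotides against mature miR-9, and 1 input library of the same chromatin, and the labels named no genotype or treatment for either. Peaks were called in the capture over the input, so both libraries stand behind 1 list, no value below has a replicate check, and a control-probe capture was not analysed here. The list gave positions and annotation, but its score was 0 in every peak, so depth and enrichment were unknown and width was the only graded value.

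A ribosome is built from ribosomal RNA and a large set of ribosomal proteins, which join either the small subunit, where mRNA is decoded, or the large subunit, where peptide bonds form. Their genes are short, are transcribed strongly in dividing cells, and often hold small nucleolar RNAs (snoRNAs), guides of rRNA modification, in their introns. Each has many silent processed copies in the genome, so that short reads from an exon can fit several places. miR-9 is known for silencing mRNAs in the cytoplasm through its seed, bases 2 to 8.

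The mature sequence of miR-9-5p (RefSeq, GRCm38.p6) is shown first because all searches for miR-9 words used it, with the seed in capitals.
miR-9-5p: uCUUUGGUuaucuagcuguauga
The 2 promoters that a peak covered whole, those of Rps2 and Rps28, are shown next, since these are the only ones of the RefSeq promoter table whose window of 300 bases lay inside a member peak. Both windows below run from 200 bases before the start of transcription to 20 bases from it, on chr17:24719863-24720082 (plus strand) for Rps2 and chr17:33824543-33824762 (minus strand) for Rps28, in mm10 positions. Capitals mark CCGGAAG or its reverse complement, the core letters bound by ETS factors.
Rps2: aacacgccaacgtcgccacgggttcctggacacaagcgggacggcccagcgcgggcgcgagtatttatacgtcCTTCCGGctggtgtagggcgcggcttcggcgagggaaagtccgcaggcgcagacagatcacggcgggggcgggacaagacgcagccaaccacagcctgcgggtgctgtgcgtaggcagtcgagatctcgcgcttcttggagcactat
Rps28: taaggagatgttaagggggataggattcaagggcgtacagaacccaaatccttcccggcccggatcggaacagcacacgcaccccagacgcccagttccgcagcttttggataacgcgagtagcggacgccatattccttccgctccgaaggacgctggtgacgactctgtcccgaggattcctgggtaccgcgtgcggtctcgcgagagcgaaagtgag
The Rps2 window held 1 such core, and the Rps28 window held none.

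The longest words of miR-9-5p found in the member peaks had 11 bases, and 4 peaks held one. The share of all peaks with a word of 11 bases was not counted, so this count is description only. The words are shown with 15 bases on either side, on the plus strand of mm10, with the word in capitals, because they are the closest matches to the captured RNA that these peaks hold. The word near Rpl37a lay at chr1:72721341-72721351 and was complementary to bases 13 to 23 of miR-9-5p. The word in an intergenic peak assigned to Rps15a lay at chr7:118035802-118035812 and was complementary to bases 5 to 15. The word near Rps23 lay at chr13:90927703-90927713 and had the same letters as bases 9 to 19. The word in a peak assigned to Rps4l lay at chr6:148395110-148395120 and was complementary to bases 11 to 21. A peak in an intron of Rps15a held a 10-base word, at chr7:118114645-118114654. On the plus strand it was complementary to bases 1 to 10, which take in the seed. Rps15a runs on the minus strand, so its transcript has the same letters as miR-9-5p there, not the complement.
Rpl37a: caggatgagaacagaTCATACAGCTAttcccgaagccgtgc
Rps15a, intergenic: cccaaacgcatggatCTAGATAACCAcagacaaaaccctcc
Rps23: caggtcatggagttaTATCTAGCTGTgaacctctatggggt
Rps4l: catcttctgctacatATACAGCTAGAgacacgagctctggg
Rps15a, intron: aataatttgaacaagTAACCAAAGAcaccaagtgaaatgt
Words of 10 bases or more were found in 7 member peaks (9.72%, exact 95% interval 4.00 to 19.0%) and in 6.04% of all peaks, a share the interval takes in. The member peaks were wider, with a median of 544.5 bases against 408, and wider peaks offer more places for a word, but the part of width was not tested. Of the 72 peaks 22 (30.6%, 20.2 to 42.5%) held a word of 8 bases, against 26.4% of all peaks. A word of 12 bases was held by 0 of 72 (upper limit 4.99%), against 0.854%. Both intervals take in the share of all peaks. A G-quadruplex motif, meaning 4 runs of 3 or more G no further than 7 bases apart, was found in 1 member peak, the one past Rps20 (1.39%, 0.0352 to 7.497%), and in 5.65% of all peaks, a share the interval takes in. With up to 12 bases between runs it was found in 6 member peaks (8.33%, 3.12 to 17.3%) and in 9.21% of all peaks.

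By subunit, 25 member peaks were assigned to 15 genes of the large subunit and 29 to 16 genes of the small subunit. Within 2 kb of a transcription start site (TSS) by the deposited distance lay 7 peaks of each subunit. Median widths were 540 bases for the large and 508 bases for the small subunit. The other 18 peaks had names of the rule without being standard ribosomal proteins. Of these, 15 were assigned to Rps4l, which RefSeq lists as a transcribed pseudogene. The remaining 3 belonged to Rpl32l, to Rpl37rt and to Rps19bp1, which codes for a protein that binds Rps19. The 15 Rps4l peaks were spread from -60112 to 43552 bases around its start, with negative distances upstream. HOMER placed all 15 inside Tmtc1, the gene of a transmembrane O-mannosyltransferase that Rps4l lies in, and 14 of these in introns. Their widths ran from 134 to 1084 bases and none lay within 2 kb of the Rps4l start. Shares of features, distances and repeats are also given below for the 57 peaks without Rps4l.

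The member peaks were found near and downstream of gene starts more often than the list as a whole. Within 2 kb of a TSS lay 15 of 72 (20.8%, interval 12.2 to 32.02%) against 8.31% of all peaks, and without Rps4l 15 of 57 (26.3%, 15.5 to 39.7%). Beyond 2 kb and up to 10 kb downstream of the TSS lay 24 (33.3%, 22.7 to 45.4%) against 10.9% of all peaks, and 22 of 57 (38.6%, 25.995 to 52.4%) without Rps4l. On the upstream side of that distance lay 5 (6.94%, 2.29 to 15.5%) against 7.22%, or 8.77% (2.91 to 19.3%) without Rps4l, and both intervals take in the share of all peaks. Promoters held 5 member peaks (6.94%, 2.29 to 15.5%, against 3.33%), and transcription termination sites, HOMER's class TTS, also held 5 (against 2.06%), and each share was 8.77% (2.91 to 19.3%) without Rps4l. Most of these features belonged to a gene other than the one named for the peak. The promoters were those of Rps2 and Rps29 themselves and of Zc3h10, Ndufa7 and Snord100. The termination sites were that of Rpl30 itself and those of Tead3, Klb, Ccdc84 and Acads. Introns held 37 (51.4%, against 42.1%), of which 14 were the Rps4l peaks, so that the intron share without Rps4l was 40.4%. Intergenic sequence held 23 (31.9%, 21.4 to 43.99%, against 49.5%), or 40.4% without Rps4l, with an interval of 27.6 to 54.2% that takes in the share of all peaks. Only 5 member peaks lay over 100 kb from a TSS (6.94%, against 23.6%), or 8.77% (2.91 to 19.3%) without Rps4l.

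**Figure D1:**
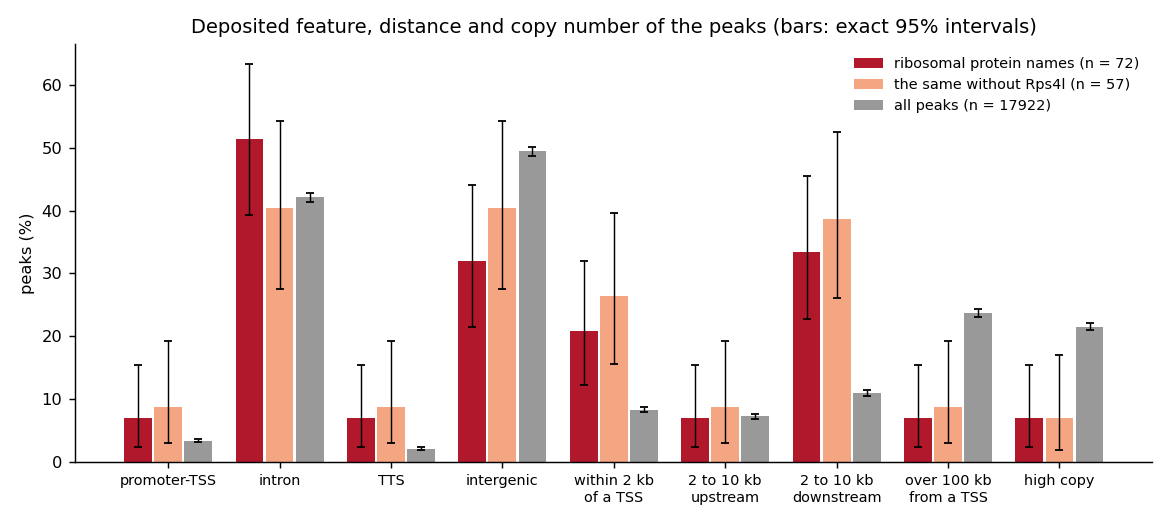
Share of peaks (%) by deposited feature, by deposited distance to a TSS and by copy number, for the 72 peaks with ribosomal protein names, the 57 without Rps4l, and all 17922 peaks, with exact 95% intervals as error bars. The share 2 to 10 kb downstream of a TSS stood at 33.3% against 10.9% of all peaks, while the share 2 to 10 kb upstream, 6.94%, was close to the 7.22% of all peaks.

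A repeat class was annotated for 25 member peaks (34.7%, 23.9 to 46.9%, against 48.7% of all peaks). Without Rps4l it was 35.1% (22.9 to 48.9%), an interval that takes in the share of all peaks. By class, LINEs took 8.33% (3.12 to 17.3%, against 18.7%), or 7.02% without Rps4l, and SINEs 16.7% (8.92 to 27.3%, against 9.97%), or 17.5% without Rps4l. A peak was called high copy where over 50% of the 32-base words it holds were present 5 times or more in the genome. This held for 5 member peaks (6.94%, 2.29 to 15.5%) against 21.5% of all peaks, and for 7.02% (1.95 to 17.004%) without Rps4l. The 5 were 2 narrow peaks in the intergenic stretch downstream of Rps29, 1 each upstream of Rps3 and Rps3a1, and 1 of the Rps4l peaks. None of the 77 peaks within 10 kb of a ribosomal protein gene was high copy. Of 287 annotated ribosomal protein pseudogenes, 3 were overlapped by a peak (1.05%, 0.216 to 3.02%), Rpl19-ps9, Rpl21-ps9 and Rps7-ps1. The share of 10224 other pseudogenes was 2.23%, which that interval takes in. The ribosomal pseudogenes were shorter, with a median of 547 bases against 932.

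HOMER names 1 gene per peak, so a peak inside a ribosomal protein gene can carry the name of a snoRNA or a neighbour. The genes were therefore also counted by position, for 80 cytosolic ribosomal protein genes in RefSeq (46 of the large subunit, 31 of the small, and 3 with other names). By name 32 of 80 had a peak (40%, 29.2 to 51.6%), against 35.0% of 21000 protein-coding genes. A total of 77 peaks lay inside or within 10 kb of 42 of these genes, and 38 genes had none. Of the 77 peaks, 41 carried the name of a gene of the family and 17 that of a snoRNA.

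**Figure D2:**
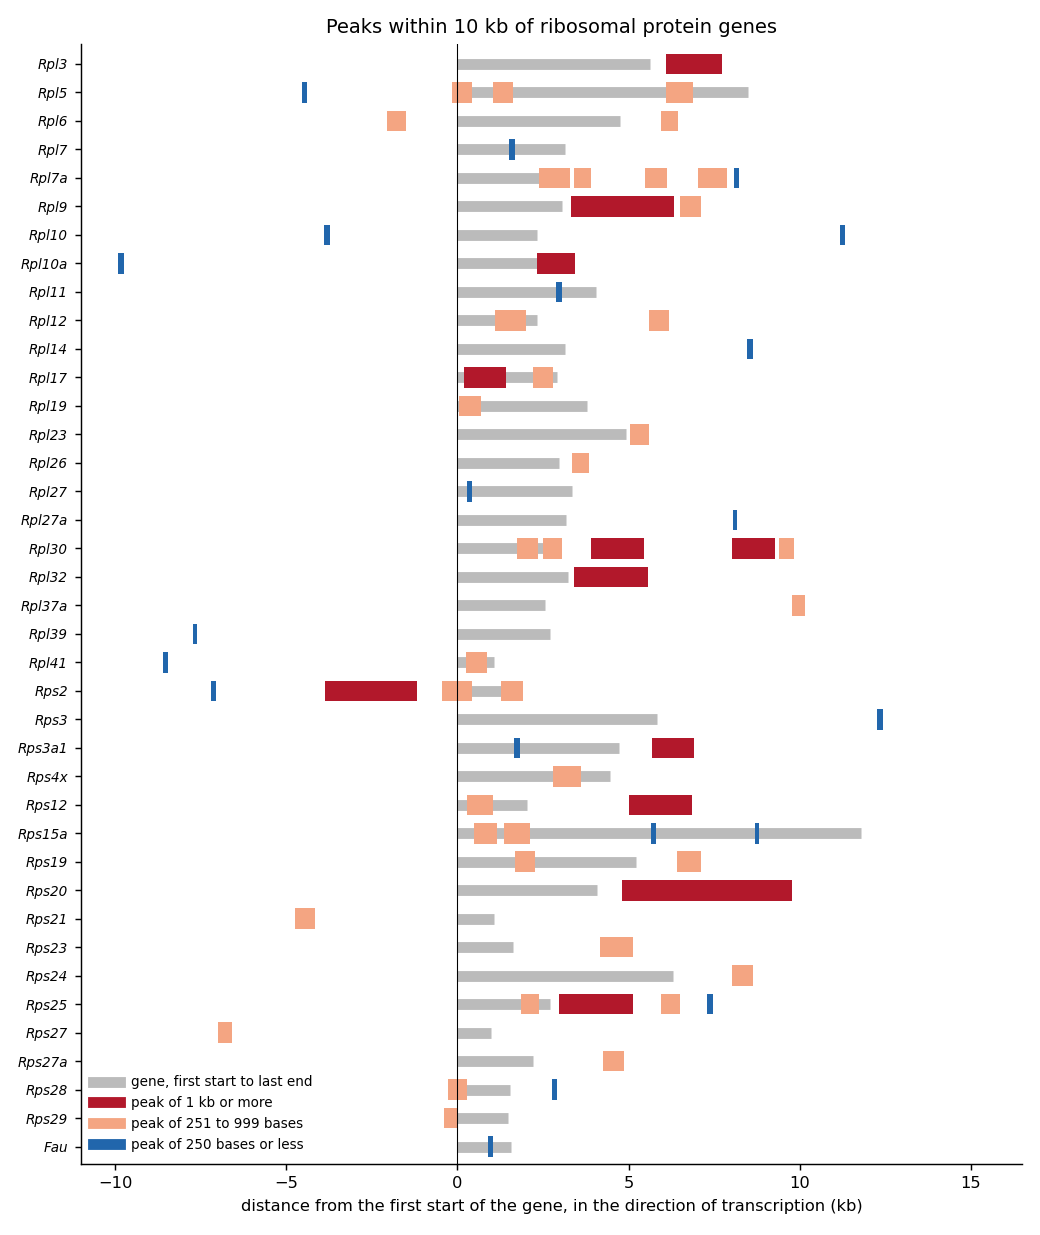
Peaks inside or within 10 kb of 39 of the 42 ribosomal protein genes that had any, by distance in kb from the first start of the gene in the direction of transcription. Grey bars are genes, and boxes are peaks at their true width, with a drawn minimum of 0.12 kb, coloured by width. Of the 70 peaks drawn, 34 lay past the end of the gene and 12 upstream of it.

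A peak centre lay within 2 kb of a curated TSS at 17 of the 80 genes (21.25%, 12.9 to 31.8%), against 6.64% of all protein-coding genes. The subunits were close to each other, with 9 of 46 genes (19.6%) and 7 of 31 (22.6%), and the last was Fau, which codes for a ubiquitin-like protein fused to Rps30. Of 20 such peaks 17 were centred downstream of the start and 3 upstream, at Rps2, Rps29 and Rpl6. The same split was not counted for all protein-coding genes, so it is description only. The genes of this and the other counts were not matched for expression, GC content or distance between genes, and the part of these in the difference was not tested.

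In the large subunit, Rpl5 had 2 of these peaks. Together with Rpl11 and 5S rRNA, Rpl5 forms a particle that can bind the p53 inhibitor Mdm2. Its peaks were at chr5:107900381-107900965, centred 145 bases from the start with a width of 585 bases, and at chr5:107901566-107902163, centred at 1336 with 598 bases, both in intron 1. Of its other peaks, one lay in intron 6 at 6490 and a narrow one upstream at -4462. The peak of Rpl19 was centred in intron 1 at 159 (chr11:98026766-98027400, 635 bases) and also touched an exon. That of Rpl27 lay in intron 1 at 351 (chr11:101442514-101442678), where it was narrow at 165 bases. At Rpl41, whose product is among the shortest known proteins of the ribosome, a 616-base peak was centred at 558 (chr10:128548303-128548918). From the start of Zc3h10, whose promoter HOMER gave as its feature, it lay at -864. Rpl7 had a narrow 151-base peak in intron 3 at 1593 (chr1:16102765-16102915). Rpl6 had a peak upstream of its start, at -1782 (chr5:121202450-121202989, 540 bases), over a SINE of the B2 family.

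Further large-subunit peaks of the count were named for a snoRNA by HOMER, and each overlapped that snoRNA. Rpl12, a protein at the base of the ribosomal stalk, had a 907-base peak in intron 4 (chr2:32962810-32963716, centre at 1551) over Snora65. Rpl17 had a 1209-base peak in intron 2 (chr18:75000679-75001887, centre at 806) over Snord58b and 2 further snoRNAs of the annotation.

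In the small subunit, the peaks closest to a start were those of Rps28 and Rps2. The 562-base peak of Rps28 (chr17:33824280-33824841) was centred 2 bases downstream of its start and at -12 from the start of Ndufa7, a gene of mitochondrial complex I that runs the other way, so the 2 promoters cannot be told apart. The 873-base peak of Rps2 (chr17:24719606-24720478) was centred at -21, and it also overlapped Snora78, and its centre lay at -77 from the start of the snoRNA host Snhg9. Rps2 had a second peak in exon 5 at 1599 (chr17:24721349-24721975, 627 bases), which HOMER named Snora64, and a 2684-base peak upstream over Rnf151. Rps12 had a 769-base peak in intron 3 at 652 (chr10:23786173-23786941) that touched a snoRNA. Rps15a had peaks in intron 1 at 810 (chr7:118115004-118115670, 667 bases) and in intron 3 at 1742 (chr7:118114034-118114776, 743 bases). Rps19, the gene most often mutated in Diamond-Blackfan anaemia in humans, had a 577-base peak in intron 3 at 1657 (chr7:24886282-24886858). Rps3a1 had a narrow peak in intron 3 at 1735 (chr3:86140851-86141016, 166 bases), named Rnu73b by HOMER. The peak of Rps29 (chr12:69159171-69159591, 421 bases, centre at -195) lay 86 bases from the start of Rn7s1, a gene of the 7SL RNA, and of its 32-base words 68.7% were also found elsewhere in the genome. The peak of Fau was narrow, at 157 bases (chr19:6058839-6058995, centre at 970, intron 3).

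Inside the genes, 31 peaks overlapped 23 of the 80 (28.75%, 19.2 to 39.95%), against 22.6% of all protein-coding genes. The ribosomal genes span a median of 3018.5 bases and protein-coding genes 16690.5, so they offered less sequence to fall into. Of the 31 peaks, 25 touched an exon and 8 touched a snoRNA. No matching shares over all protein-coding genes are given, so these counts are description only. Besides the genes above, Rpl11 had a narrow peak in intron 4 and Rps4x, the X-linked form of S4, an 815-base peak in intron 5. Rpl30 had a 607-base peak over the snoRNA of its intron 4. snoRNA hosts among the ribosomal genes had a body peak in 10 of 31 cases (32.3%, 16.7 to 51.4%) and the others in 13 of 49 (26.5%, 14.9 to 41.1%), intervals that overlap. Over all protein-coding genes the shares with a body peak were 52.1% of 353 snoRNA hosts and 22.1% of the rest. The interval of the ribosomal hosts thus lay below the share of all hosts. Upstream of the first start, up to 10 kb, 10 of 80 genes had a peak (12.5%, 6.16 to 21.8%), against 9.9% of all protein-coding genes. These included narrow peaks before Rpl10 and Rpl39 and a 576-base peak before Rps21.

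The largest of these counts was past the end of the gene, a measure that the plan of results had not listed. Up to 10 kb past the last annotated end, 26 of 80 ribosomal protein genes had a peak centre (32.5%, 22.4 to 43.9%), against 10.6% of all protein-coding genes. Both subunits had them, at 14 of 46 genes (30.4%, 17.7 to 45.8%) and 12 of 31 (38.7%, 21.9 to 57.8%). There were 39 such peaks, centred 14 to 8920 bases past the end with a median of 2484 bases, and 10 genes had peaks both in the body and past the end. Of the 39, 16 were centred inside another protein-coding gene and 10 within 2 kb of another TSS. Counting only centres outside every protein-coding gene, 18 of the 80 ribosomal genes had a peak past the end, against 7.53% of all protein-coding genes.

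In distance bins outside the gene, the shares of ribosomal and all protein-coding genes were far apart only just past the end. These bins leave out the gene itself, and so most of the peaks counted near a TSS above. In the first 2 kb past the end 14 of 80 genes had a peak (17.5%, 9.91 to 27.6%) against 2.96% of all protein-coding genes, and from 2 to 5 kb 12 had one (15.0%, 7.998 to 24.7%) against 3.82%. From 5 to 10 kb it was 6 genes (7.5%, against 5.18%), from 10 to 20 kb 10 genes (12.5%, against 8.64%), and from 20 to 40 kb 14 genes (17.5%, against 15.97%). On the upstream side the same bins gave 3.75% against 3.19%, 5% against 2.995%, 6.25% against 4.54%, 8.75% against 8.7% and 17.5% against 15.9%. The interval of the ribosomal genes lay above the share of all protein-coding genes in the first 2 bins past the end and took it in for the other 8 bins.

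**Figure D3:**
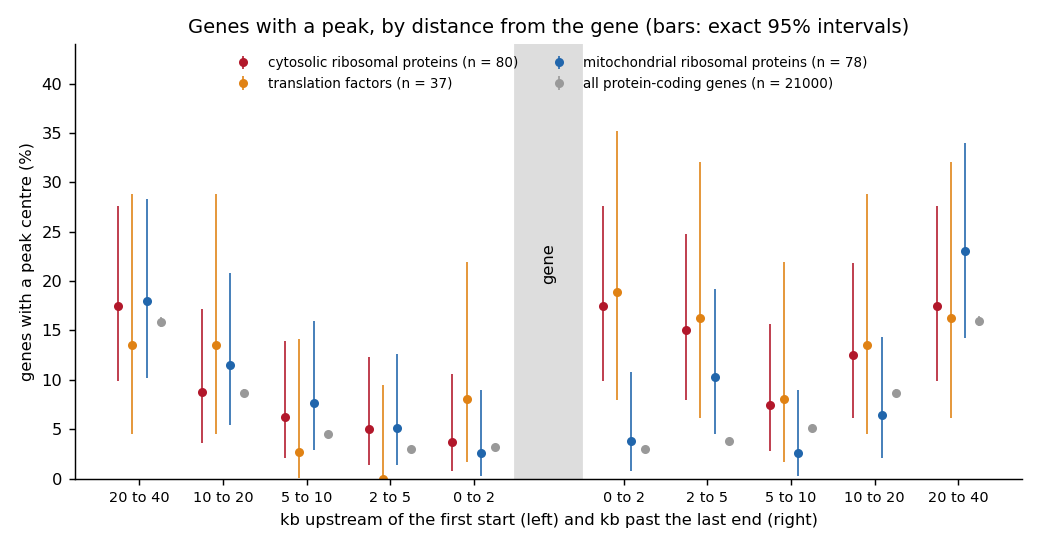
Share of genes (%) with a peak centre in each distance bin upstream of the first start (left) and past the last end (right), for 80 cytosolic ribosomal protein genes, 37 translation factors, 78 mitochondrial ribosomal proteins and 21000 protein-coding genes, with exact 95% intervals. Ribosomal protein genes stood at 17.5% and 15.0% in the first 2 bins past the end, against 2.96% and 3.82% of all protein-coding genes.

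Of the 7 widest peaks around these genes, 6 lay past the end, and the third widest was the 2684-base peak upstream of Rps2. Past Rps20, a protein of the small-subunit head, the peak at chr4:3825877-3830844 was 4968 bases wide, the 24th widest of all 17922, and was centred 3224 bases past the end. Past Rpl9 a peak at chr5:65385121-65388113 was 2993 bases wide, the 74th widest, and was followed by one of 605 bases. Past Rps25, which is needed for initiation at several viral internal entry sites, a 2159-base peak (chr9:44410685-44412843) lay over introns of Ccdc84, with 2 smaller peaks behind it. Past Rpl32 a 2161-base peak (chr6:115803166-115805326) lay over Cand2. Rps12 had an 1851-base peak centred 3906 bases past its end (chr10:23780352-23782202). Rpl3, a protein of the large subunit, had a 1616-base peak at 1287 (chr15:80075687-80077302).

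In some genes the peaks stood in a row. Rpl30 had 1 peak in its last intron and 4 past the end, at 14, 1903, 5870 and 6850 bases, the last 2 of these inside Matn2. Rpl7a had 5 past the end, at 316 to 5647 bases, in the neighbouring Surf1 and Surf2. Single peaks of 495 to 1241 bases were centred past Rpl6, Rpl10a, Rpl12, Rpl23, Rpl26, Rps3a1, Rps19, Rps23, Rps24 and Rps27a. Narrow ones were found past Rpl10, Rpl14, Rpl27a, Rps3 and Rps28, among others, and a 377-base peak past Rpl37a.

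Over all 39, the median width was 596 bases (interval of the median 512 to 841), against 494 for the 2353 peaks past the end of any protein-coding gene. Peaks of 1 kb or more were 10 of 39 (25.6%, 13.0 to 42.1%), against 7.39% of that set. The 20 peaks near a ribosomal TSS had a median of 607 bases, and 1 of them, at Rpl17, reached 1 kb.

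**Figure D4:**
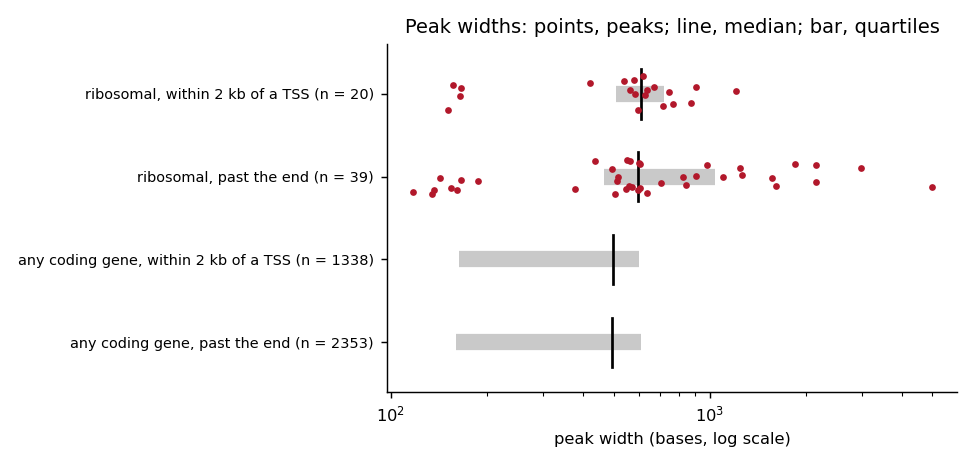
Width in bases (log scale) of the 20 peaks within 2 kb of a TSS and the 39 peaks past the end of ribosomal protein genes (points), with median (line) and quartiles (bar), beside the medians and quartiles for all protein-coding genes. Past the end, 10 of 39 ribosomal peaks reached 1 kb, and the widest had 4968 bases.

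Among the 31 ribosomal genes with a snoRNA inside, 14 had a peak past the end (45.2%, 27.3 to 64.0%), and among the 49 without one, 12 (24.5%, 13.3 to 38.9%), intervals that overlap. Over all protein-coding genes the shares were 20.7% of 353 snoRNA hosts and 10.4% of the rest. With a snoRNA and without one alike, the interval of the ribosomal genes lay above the matching share of all protein-coding genes. The part of snoRNAs in the peaks past the end was not tested.

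The remaining member peaks lay far from a ribosomal gene. Of the 54 peaks of standard ribosomal proteins, 14 were over 10 kb away. These included 4 in the intergenic stretch up to 432747 bases downstream of Rps29, 2 past Rps15a, and 1 each past Rps23, Rps24 and Rps26. On the upstream side were 2 in introns of Npas2 assigned to Rpl31, 1 in an intron of Pxn assigned to Rplp0, which forms the base of the ribosomal stalk, and 1 each at Rps3 and Rps3a1. Of these 14 peaks only 3 were wider than 250 bases.

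The promoters were compared by sequence, since 13 of the 59 genes found in the RefSeq promoter table had a peak near the TSS. The ETS core CCGGAAG was present, on either strand of the 300-base window, in 23 of 59 ribosomal promoters (39.0%, 26.5 to 52.6%) against 12.2% of 16853 protein-coding promoters. The YY1 core AAGATGGC was in 5 (8.47%, 2.81 to 18.7%, against 3.29%) and the TATA box letters TATAAA in 5 (8.47%, 2.81 to 18.7%, against 13.2%). For both motifs the interval takes in the share of protein-coding promoters. A run of 8 or more C or T within 25 bases of the start, as in the terminal oligopyrimidine tract of these mRNAs, was in 29 (49.2%, against 19.3%). Promoters with and without a near peak had the ETS core in 5 of 13 and 18 of 46 cases (38.5%, 13.9 to 68.4%, and 39.1%, 25.1 to 54.6%). The pyrimidine run was in 4 of 13 (30.8%, 9.09 to 61.4%) and 25 of 46 (54.3%, 39.0 to 69.1%), intervals that overlap.

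Other gene groups of protein synthesis were counted alike. Translation factors had a peak near the TSS in 6 of 37 genes (16.2%, 6.19 to 32.01%) and past the end in 14 (37.8%, 22.5 to 55.2%), an interval that overlaps that of the ribosomal genes. Those nearest to a TSS were at the termination factor Gspt1 (-85) and the initiation factors Eif3g (341), Eif2s3x (-630) and Eif4a1 (1499). Genes of ribosome assembly had 6 of 38 (15.8%, 6.02 to 31.3%) near the TSS and 7 (18.4%, 7.74 to 34.3%) past the end, the nearest at Pes1 (4), Rpf2 (-73), Nhp2 (91) and Ncl (203). Mitochondrial ribosomal protein genes had 6 of 78 (7.69%, 2.88 to 15.99%) near the TSS and 10 (12.8%, 6.32 to 22.3%) past the end, both close to the shares of all protein-coding genes. Their nearest were Mrpl27 (-10), Mrpl35 (233), Mrps9 (540) and Mrpl49 (-1162), the last through the peak it shares with Fau.

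**Figure D5:**
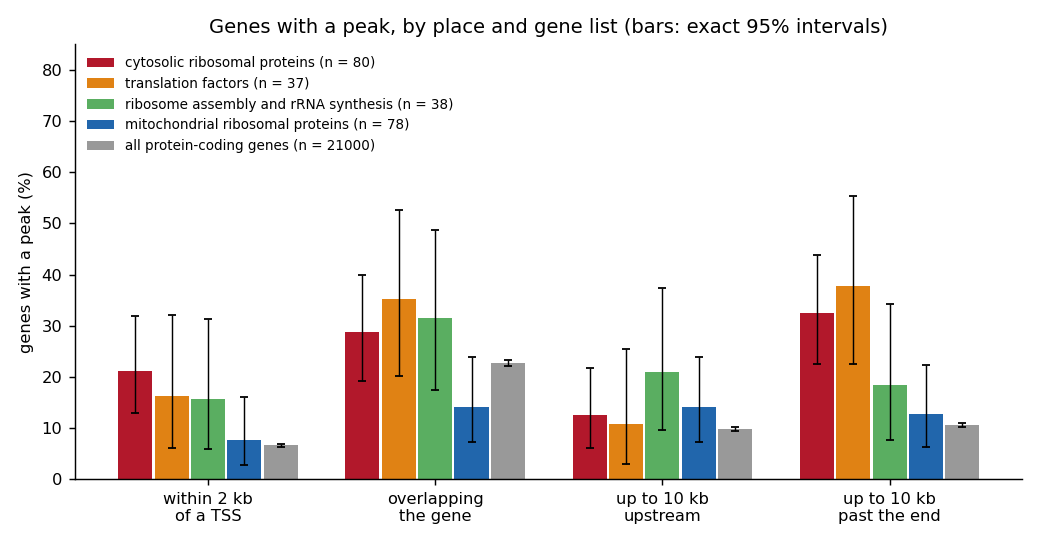
Share of genes (%) with a peak within 2 kb of a TSS, overlapping the gene, up to 10 kb upstream and up to 10 kb past the end, for 5 gene groups, with exact 95% intervals. Past the end, ribosomal proteins (32.5%) and translation factors (37.8%) stood above all protein-coding genes (10.6%), and mitochondrial ribosomal proteins (12.8%) did not.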

How the data were processed

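The authors trimmed single-end reads with Trimmomatic (0.36 in the submitters' processing notes), aligned them with Bowtie2 in its default mode to mm10, removed duplicates with Picard, called peaks with MACS over the input at more than 1 shift size with a cutoff on the uncorrected p-value, merged them with bedtools and annotated them with HOMER. A read that fits several loci is placed at 1 of them in that mode. The deposited score column was 0 in all 17922 peaks, and the other deposited values, starts, ends and distances to the TSS in bases, were used as given. The annotation of 8093 peaks was split over several cells and was rejoined, and 64 peaks had no gene name.

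Peaks were placed against RefSeq genes of GRCm38.p6, the assembly behind mm10, with Python 3.11.15, pandas 2.3.3, numpy 2.4.6 and numba 0.67.0. Peaks of 250 bases or less were called narrow. A gene was counted near the TSS where any of its curated mRNAs started no more than 2 kb from a peak centre. Exact 95% binomial (Clopper-Pearson) intervals, from scipy 1.17.1, cover counting error only and treat neighbouring peaks and genes as independent. With 1 capture and 1 input library no test was run. The counting was tested on simulated peaks and words.

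The members and gene lists were chosen with earlier results of these data known. By rule, every ribosomal protein gene with a peak near its TSS was named with position and width, every other gene with a member peak was named at least once, and up to 4 genes nearest to a TSS were named for each comparison list. A few ribosomal protein genes are counted in the totals but are not reported here by name or drawn on the map of peaks.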

Additional observations from a re-analysis of the deposited data

How the results depend on the processing

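Of the alternative values, 21 were classed as close to the reported ones and 7 were not. Values classed as close could still differ. The 17 of 80 genes near a TSS became 13 of 80 with peaks wider than 250 bases, against 4.25% of all protein-coding genes. The 26 genes with a peak past the end ranged from 18 to 33. The 7 others follow. The count of 17 of 80 ribosomal protein genes near a TSS became 11 within 1 kb (against 4.2% of all protein-coding genes), 32 within 5 kb (against 12.2%) and 5 with HOMER's promoter class and the gene's own name (against 2.37%). The 72 member peaks became 46 among peaks wider than 250 bases. The share with a miR-9-5p word of 10 bases, 9.72%, was 30.6% for 8 bases and 0 for 12 bases. The share with a G-quadruplex motif, 1.39%, was 8.33% with loops of up to 12 bases (9.21% of all peaks).

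The count of genes with a peak past the end, 26, ranged from 18 to 33 over 6 alternatives chosen after seeing the data. Neither this measure nor the distance bins were listed in the plan of results, and the intervals do not allow for that choice. The count, out of 80, was 22 within 5 kb (against 6.26% of all protein-coding genes) and 33 within 20 kb (against 17.6%). It was 20 with peaks wider than 250 bases (against 6.44%) and 18 outside every protein-coding gene (against 7.53%). No paired analysis was possible because there was 1 capture library, 1 input library and no test. Without read counts, reads from a repeated copy, an unspecific capture and a weak peak could not be told from the rest.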
